A study of Caenorhabditis elegans with 3 samples.

Results

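The genes described here encode the ATPase CDC-48 of Caenorhabditis elegans and the cofactors that bring it to its substrates. They are 10 of the 19973 protein-coding genes on the 6 chromosomes, taken by name: the paralogues cdc-48.1 and cdc-48.2, the adaptor genes ufd-1, npl-4.1 and npl-4.2, the chain-extending ligase gene ufd-2, and the UBX domain genes ubxn-1, ubxn-2, ubxn-3 and ubxn-4. The gene cdc-48.1 was selected on its measured peak strength, and the others as its paralogue and its known cofactors, so its rank and strength are given as a description and were not tested. Chromatin immunoprecipitation with sequencing (ChIP-seq) had mapped LIN-15B, a nuclear THAP domain protein of the synMuv B class, in whole L1 larvae of both sexes from the transgenic strain OP184. The labels give this strain as unc-119(tm4063) on chromosome III with the insertion wgIs184, and the tagged lin-15B is a transgene that all samples carry. There was 1 group with 3 biological replicates and no untreated or control sample among them. The worms of replicates 1 and 2 are labelled as obtained from a stock centre, and their libraries as holding fragments of 150 to 350 bp. Those of replicate 3 are labelled with the laboratory as their source; this replicate was sonicated with a microtip and is labelled as a C-terminal GFP-FLAG fusion. The antibody label names LIN-15B and the descriptions name the eGFP fusion, so which of them the antibody bound is not known. Whole animals were pooled, so binding in one tissue cannot be told apart from binding in many.

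CDC-48, known as p97 or VCP in mammals, is a ring-shaped AAA ATPase that pulls ubiquitin-tagged proteins out of membranes, chromatin and complexes, often on their way to the proteasome. UFD-1 and NPL-4 form an adaptor that binds ubiquitin chains, UFD-2 lengthens such chains, and proteins with a UBX domain dock on CDC-48 and direct it to particular substrates. Worms have paralogous genes for the ATPase, cdc-48.1 and cdc-48.2, and for NPL-4.

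There were 4 deposited lists of 30000 peaks, 1 for each replicate and 1 for the whole series, made from all 3 replicates. Each peak has a strength on the scale of its own list, so peaks were ranked by strength within a list, with rank 1 the strongest. A peak was assigned to a gene when its summit lay from 1000 bp upstream of the gene start to the gene end. A series-wide peak was called consistent when its irreproducible discovery rate (IDR), a rate derived from how well the ranks of matched peaks hold up in another replicate, was 0.05 or less in all 3 pairs of replicates. In all, 939 series-wide peaks were consistent. Read depth is unknown, since the lists hold no read counts. Coordinates are on ce11 and 1-based.

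The sequences under the series-wide summits, and the matching stretch of cdc-48.2, are shown first because the paralogues and cofactors are compared on them below. Each runs from 100 bp before to 100 bp past its centre and is from the RefSeq genome (WBcel235, the same assembly as ce11), 5′ to 3′ on the strand of the gene. Capitals mark the motif GAGCGC, the repeat GAGAGA or an E2F-like motif, on either strand. The latter was searched in 4 forms: the form TTCCCGC, the form TTCGCGC, the form TTGCCGC and the form TTGGCGC. The stretch of cdc-48.1 is chrII:10563470-10563670 on the minus strand. That of cdc-48.2, chrII:8138233-8138433 on the plus strand, is not centred on a summit. It is centred as far upstream of its gene, 163 bp, as the cdc-48.1 summit. A series-wide peak of rank 12450 and a replicate 3 peak of rank 1481 overlap part of it. The stretch of ufd-2 is chrII:8062333-8062533 on the plus strand, that of ubxn-2 is chrIV:2725902-2726102 on the minus strand, and that of ubxn-3 is chrII:221278-221478 on the minus strand.
cdc-48.1: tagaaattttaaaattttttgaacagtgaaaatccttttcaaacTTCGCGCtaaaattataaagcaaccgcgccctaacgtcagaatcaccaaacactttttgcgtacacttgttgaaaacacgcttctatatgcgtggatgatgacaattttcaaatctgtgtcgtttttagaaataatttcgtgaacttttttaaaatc
cdc-48.2: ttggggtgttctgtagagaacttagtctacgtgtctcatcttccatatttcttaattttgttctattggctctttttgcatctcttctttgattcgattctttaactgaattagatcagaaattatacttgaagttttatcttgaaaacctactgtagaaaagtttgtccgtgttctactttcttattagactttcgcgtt
ufd-2: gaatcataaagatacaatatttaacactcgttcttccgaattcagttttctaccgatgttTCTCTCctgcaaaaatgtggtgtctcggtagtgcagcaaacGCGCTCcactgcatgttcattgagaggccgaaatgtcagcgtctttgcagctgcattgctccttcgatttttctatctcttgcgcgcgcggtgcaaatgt
ubxn-2: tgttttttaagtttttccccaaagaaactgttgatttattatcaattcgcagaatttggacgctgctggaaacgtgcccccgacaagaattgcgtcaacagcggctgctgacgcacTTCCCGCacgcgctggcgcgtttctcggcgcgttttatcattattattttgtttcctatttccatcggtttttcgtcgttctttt
ubxn-3: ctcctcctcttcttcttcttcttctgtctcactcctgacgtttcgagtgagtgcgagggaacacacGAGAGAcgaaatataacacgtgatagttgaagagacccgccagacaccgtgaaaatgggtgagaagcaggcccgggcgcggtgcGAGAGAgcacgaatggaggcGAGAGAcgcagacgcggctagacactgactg

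The ATPase gene cdc-48.1 (WBGene00007352, chromosome II, 10560036 to 10563407, minus strand) carried one of the strongest LIN-15B peaks of the genome. Its peak ranked 1 in the series-wide list, 6 in replicate 1, 5 in replicate 2 and 1 in replicate 3, a mean rank of 4.0 ± 2.65 (SD, n = 3). In replicates 1, 2 and 3 the authors gave it a strength of 221, 209 and 432, which is 28.7, 67.4 and 73.5 times the median strength of the respective list. All replicates thus placed the peak among their 6 strongest. In the series-wide list its strength was 862, against 819 for the peak of rank 2, so it led that list by a factor of 1.05 only. The summit lay at 10563570, in intergenic sequence 163 bp upstream of the gene start. Replicates placed it 170, 177 and 162 bp upstream, a spread of 15 bp. The nearest start of another protein-coding gene, C06A1.6, was 1108 bp from the summit. No other peak in the window of cdc-48.1 ranked better than 5104 in any list, and the next one was in an intron, 2919 bp past the gene start, in replicate 2.

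The paralogue cdc-48.2 (WBGene00008053, chromosome II, 8138496 to 8141230, plus strand) had no peak that all 3 replicates shared. Its best peak ranked 10697 in the series-wide list, 13694 in replicate 1, 4046 in replicate 2 and 1481 in replicate 3. These best peaks did not lie in one place: that of replicate 1 was 262 bp inside the gene, that of replicate 2 was 835 bp upstream and that of replicate 3 was 292 bp upstream. Their strengths were 1.02, 1.67 and 3.16 times the median of the list. The best peak of cdc-48.1 ranked ahead of that of cdc-48.2 in each replicate, which the choice of cdc-48.1 for its peak largely fixes, so the difference was not tested. The series-wide peak 864 bp upstream of cdc-48.2 was nearer to the start of ctns-1, at 714 bp, than to cdc-48.2. It was matched in replicates 2 and 3 only, with an IDR of 0.0711. The series-wide peak 290 bp upstream was matched in replicate 3 alone.

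**Figure D1:**
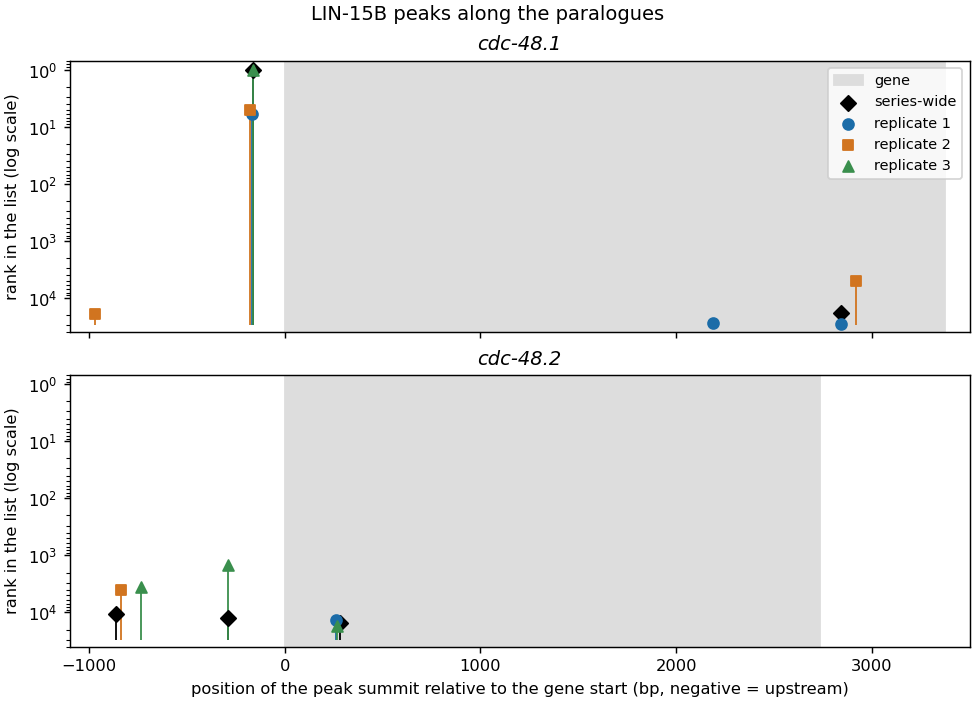
Listed LIN-15B peaks at cdc-48.1 (top) and cdc-48.2 (bottom). The horizontal axis is the summit's distance from the gene start in bp and the vertical axis the rank in the list on a log scale, with rank 1 at the top; symbols are the series-wide list and the 3 replicates, and the shaded box is the gene. The 4 lists place a peak of rank 1 to 6 162 to 177 bp upstream of cdc-48.1, and no peak at cdc-48.2 ranks better than 1481.

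Long identical stretches were few between the paralogues. Their coding sequences, 2427 and 2430 bases long, were identical at 76.3% of 2417 aligned bases, with no identical run longer than 35 bases. The longest run shared by the 1000 bp upstream of both genes was 10 bases. Of the words of 31 bases in the window, 3.09% for cdc-48.1 and 0.187% for cdc-48.2 occurred more than once in the genome, and at the cdc-48.1 summit none did within 100 bp either side. In base composition the stretches 163 bp upstream were alike in GC content, 32.3% for cdc-48.1 and 32.8% for cdc-48.2. They differed in CpG dinucleotides, of which cdc-48.1 had 10 and cdc-48.2 had 5. The median count was 12 at the summits of consistent peaks and 6 over all genes at 163 bp upstream. The stretch of cdc-48.1 is centred on its summit and that of cdc-48.2 is not, so they are not like for like. No stretch at a cdc-48.2 summit was measured. Observed over expected CpG came to 1.94 at cdc-48.1, above that of 95.3% of 19973 protein-coding genes at the same distance, and 0.924 at cdc-48.2, above 40.7% of them. The stretch of cdc-48.1 held 1 E2F-like form, TTCGCGC, and that of cdc-48.2 held none of the motifs searched.

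Among the adaptor genes, ufd-1 (WBGene00006733, chromosome IV, 12329408 to 12330890, minus strand) had only peaks below the list median in replicates 1 and 2 and a stronger one in replicate 3. Its best peak ranked 15757 in replicate 1, 18153 in replicate 2 and 1227 in replicate 3, and 4354 in the series-wide list. The strength was 0.984, 0.914 and 3.75 times the list median in replicates 1, 2 and 3. The best peak of replicate 2 lay 963 bp upstream, in the coding sequence of F19B6.1 and 207 bp from its start. Replicate 3 stood far above the others. The series-wide summit, at 12331187, was 297 bp upstream of ufd-1 but inside the annotated 3′ UTR of F19B6.1, which ends 85 bp upstream of ufd-1 on the same strand. The replicate peaks matched to it ranked 15757, 23876 and 1227, and their IDR was 0.708, 0.724 and 0.634 for replicates 1 and 2, 1 and 3, and 2 and 3.

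The other adaptor genes, npl-4.1 (WBGene00019120, chromosome II, 5631351 to 5633284) and npl-4.2 (WBGene00019121, chromosome II, 5622889 to 5624959), had no listed peak in any of the 4 lists, as did 9.89% of all protein-coding genes. Both lie on the plus strand, with starts 8462 bp apart, and they are near copies. Their coding sequences were identical at 1579 of 1587 bases (99.5%), and the 1325 bases directly upstream of the starts were the same in both. Of the 31-base words, 90.8% in the window of npl-4.1 and 88.3% in that of npl-4.2 occurred more than once in the genome. Across all genes, 225 of the 227 with 90% or more repeated words had no peak in any list (99.1%, 95% Wilson interval 96.8% to 99.8%), against 8.86% of the other genes. The share was 65.6% for the 358 genes with 50% to 90% repeated words and 5.99% for the 16423 genes with under 10%. How reads with several matching places were treated is not given in the sources used here, so the lists do not tell whether LIN-15B lay at the npl-4 genes. The nearest listed peaks outside the windows were weak, with none better than rank 6489 at npl-4.1 or 11624 at npl-4.2.

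**Figure D2:**
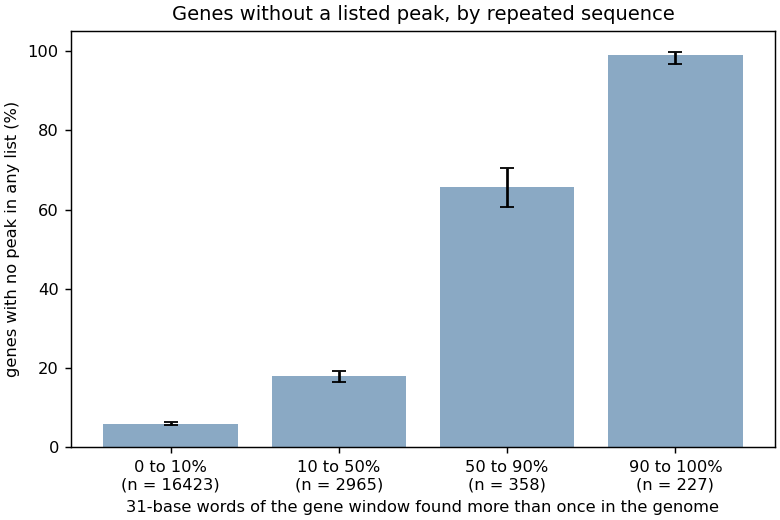
Share of protein-coding genes with no peak in any of the 4 lists (vertical axis, %) by the share of 31-base words in the gene window that occur more than once in the genome (horizontal axis, with the number of genes per bar). Bars start at 0 and error bars are 95% Wilson intervals, which cover counting error over genes only; the share rises from 5.99% to 99.1%, and npl-4.1 and npl-4.2 fall in the last and the next to last bar.

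The gene ufd-2 (WBGene00006734, chromosome II, 8062741 to 8066193, plus strand), for the ligase that extends ubiquitin chains, had the second strongest peak of the family. It ranked 249 in replicate 1, 242 in replicate 2, 148 in replicate 3 and 174 in the series-wide list, a mean over the replicates of 213 ± 56.4 (SD, n = 3). The strength was 5.05, 12.2 and 15.8 times the list median in replicates 1, 2 and 3. The summit lay at 8062433, in intergenic sequence 308 bp upstream of the start, and the replicates placed it within 6 bp of each other. No other gene start was nearer than 3364 bp. The gene pdha-1 follows ufd-2 on the same strand after 91 bp. The stretch at the summit held 1 GAGCGC and 1 GAGAGA on the minus strand, which as printed read GCGCTC for the first motif and for the other TCTCTC, and no E2F-like form.

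The UBX domain genes ranged from clear peaks to almost none. For ubxn-2 (WBGene00022381, chromosome IV, 2720313 to 2725819, minus strand), a member of the p47 family, the peak ranked 299 in replicate 1, 251 in replicate 2, 737 in replicate 3 and 417 in the series-wide list. The mean over the replicates was 429 ± 268 (SD, n = 3), and here replicate 3 had the worst rank. Against the list median the strength was 4.45, 11.7 and 5.71 times in replicates 1, 2 and 3. By that measure replicate 1 was the lowest, as it also was at cdc-48.1, cdc-48.2, ufd-2, ubxn-1 and ubxn-3. At ufd-1 replicate 2 was the lowest. The measure depends on the spread of each list, so it is not like for like between replicates. At rank 1000 the strength was 15.45, 12.92 and 26.25 in replicates 1, 2 and 3. The list medians were 7.727, 3.105 and 5.878. The series-wide summit, at 2726002, was intergenic and 183 bp upstream of the start, and the replicates placed theirs within 27 bp. The stretch held 18 CpG dinucleotides, a ratio of 1.80, and 1 E2F-like form, TTCCCGC.

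For ubxn-3 (WBGene00018586, chromosome II, 217049 to 220667, minus strand), the homologue of mammalian FAF1, which helps CDC-48 take the replicative helicase off chromatin, the best peak lay farther out. It ranked 859 in replicate 1, 1024 in replicate 2, 1416 in replicate 3 and 1162 in the series-wide list, a mean over the replicates of 1099.7 ± 286 (SD, n = 3). The series-wide summit, at 221378, was 711 bp upstream of the start, while replicates placed theirs 632, 751 and 812 bp upstream, a spread of 180 bp. With windows that reach 500 bp upstream only, or with replicates matched by summits within 100 bp, ubxn-3 was not called. Its stretch had the highest GC content of those printed, 55.7%, held GAGAGA 3 times and had a CpG ratio of 1.10. A stronger site lay just outside the window, 143 bp from the start of F48A11.4 and beyond the 3′ end of ubxn-3: it ranked 44, 75 and 62 in replicates 1, 2 and 3. Just inside a window's edge was a replicate 2 peak of rank 18863, 968 bp upstream of cdc-48.1 and within C06A1.6.

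The gene ubxn-1 (WBGene00017733, chromosome I, 2434002 to 2435691, plus strand) had a peak that narrowly missed the call. It ranked 2756 in replicate 1, 644 in replicate 2, 760 in replicate 3 and 793 in the series-wide list, and replicate 1 stood apart from the others. The IDR was 0.0703 for replicates 1 and 2, 0.0261 for 1 and 3, and 0.000236 for 2 and 3, so 1 pair failed. The gene was called at an IDR of 0.1 and without replicate 1 or replicate 2, since either omission removes the pair that failed. The series-wide summit, at 2433763, was 239 bp upstream of ubxn-1 but 148 bp from the start of tipn-1, which runs the other way, so the peak cannot be given to one gene rather than the other. Replicates 1, 2 and 3 placed their summits 371, 243 and 221 bp upstream of ubxn-1, a spread of 150 bp. That of replicate 1 was 16 bp from the tipn-1 start. For ubxn-4 (WBGene00022703, chromosome III, 8403709 to 8405562, minus strand), which in mammals acts in the degradation of endoplasmic reticulum proteins, no peak was listed in the window outside replicate 3. That replicate had 4 there, the best of rank 7330 at 40 bp upstream.

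**Figure D3:**
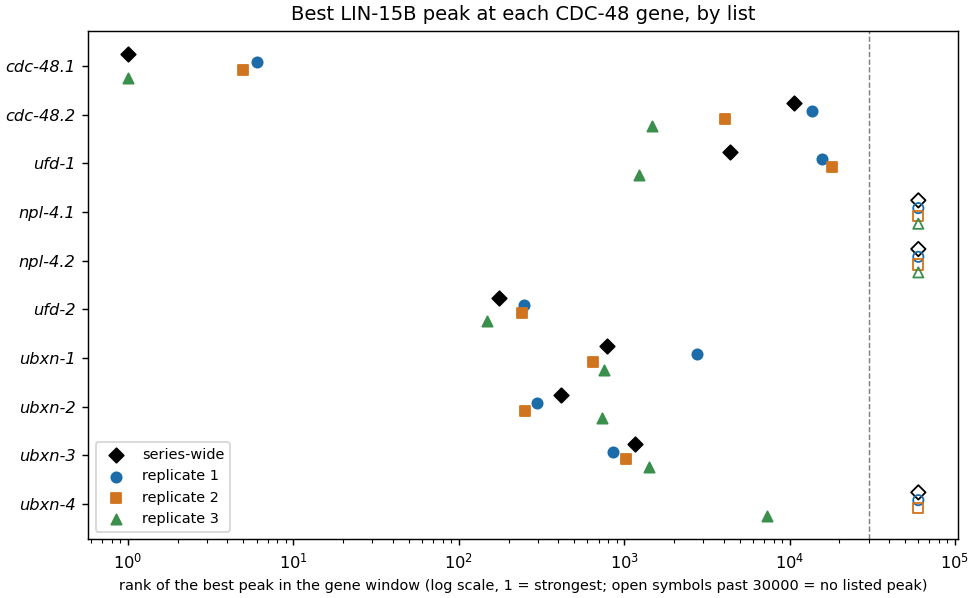
Rank of the best LIN-15B peak in the window of each CDC-48 gene (horizontal axis, log scale, 1 = strongest) in the series-wide list and in each of the 3 replicates; genes are on the vertical axis. Open symbols to the right of the dashed line at 30000 stand for no listed peak; cdc-48.1 stands alone at ranks 1 to 6, ufd-2 and ubxn-2 lie at 148 to 737, and npl-4.1 and npl-4.2 have open symbols only.

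Counted together, 4 of the 10 genes had a consistent peak: cdc-48.1, ufd-2, ubxn-2 and ubxn-3. Over all 19973 genes the same call was made for 6.51%, and cdc-48.1 is among the 4 by choice, so the count is a description. Each of the 4 peaks lay upstream of its gene, from 163 to 711 bp, and in each case no other protein-coding gene had a nearer start. The IDR in the 3 pairs was at most 8.86e-11 for cdc-48.1, 7.57e-06 for ufd-2, 0.000421 for ubxn-2 and 0.00985 for ubxn-3. The IDR is derived from the ranks, so its value at cdc-48.1, chosen on its peak, is a description too. Of the other 6 genes, npl-4.1 and npl-4.2 had no listed peak, ubxn-4 had peaks in replicate 3 only, and ubxn-1, ufd-1 and cdc-48.2 had a peak in every list. The share of all genes with a peak in every list is not given here, so the latter is a description.

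Replicate 3 gave the best rank of the 3 replicates at cdc-48.1 and ufd-2, and also at the uncalled cdc-48.2, ufd-1 and ubxn-4, where it was 1481, 1227 and 7330. It gave the worst rank at the called ubxn-2 and ubxn-3, and the middle one at ubxn-1. This replicate also differs from the others in stock and sonication, which cannot be told apart from the replicate itself. Of the 1500 strongest peaks of replicate 3, 421 had no overlapping peak of rank 10000 or better in replicate 1. In replicate 2, 132 had none, and 95 (6.33%) had none in either of these replicates. The limits were chosen after the values were seen. The peaks upstream of cdc-48.2 and ufd-1 are among these 95.

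**Figure D4:**
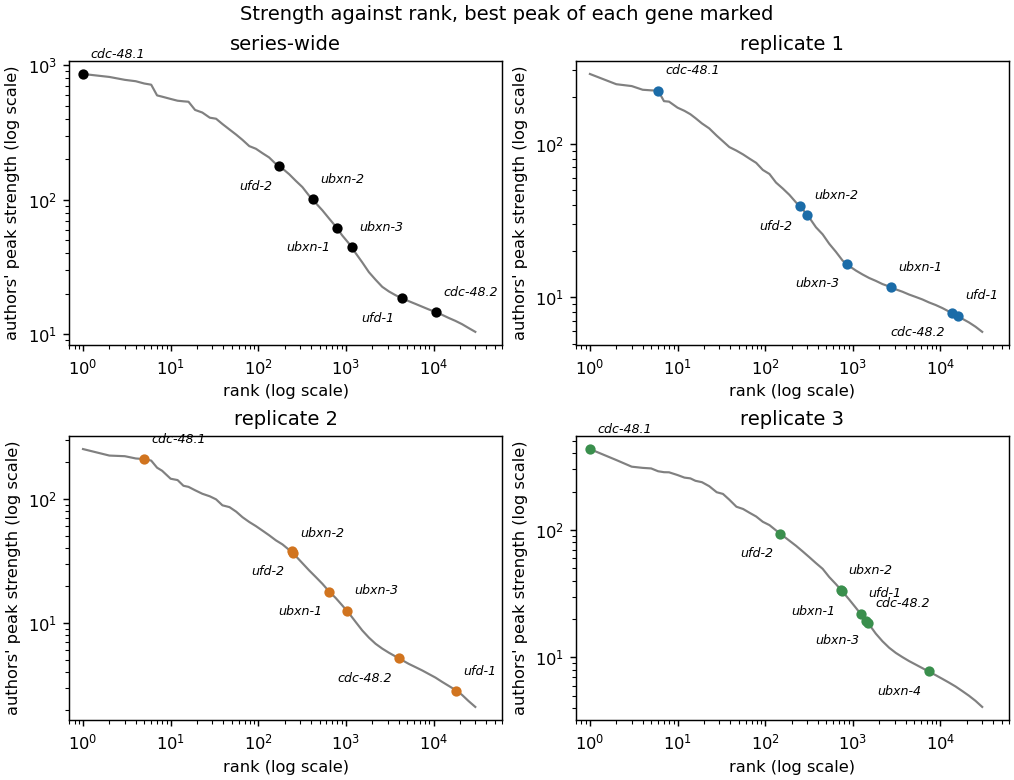
Authors' peak strength (vertical axis, log scale, own scale per list) against rank (horizontal axis, log scale) in the 4 lists, as a grey line, with the best peak of each CDC-48 gene as a point. In every panel cdc-48.1 sits at the top of the curve, ufd-2 and ubxn-2 on its steep part, and cdc-48.2 and ufd-1 on or near its flat tail, except in replicate 3, where they rank 1481 and 1227.

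The sequences under the called peaks had no one feature in common among those searched. At the summit, the CpG ratio was 1.94 for cdc-48.1, 1.27 for ufd-2, 1.80 for ubxn-2, 1.10 for ubxn-3 and 2.07 for the uncalled ubxn-1. The median was 1.42 over the 939 consistent peaks, with 0.796 and 2.10 as the 5th and 95th percentiles, and 1.02 over all genes at 163 bp upstream. The GC content was 32.3% for cdc-48.1, 45.3% for ufd-2, 44.8% for ubxn-2 and 55.7% for ubxn-3, against a median of 41.3% for consistent peaks. The strongest peak thus had the lowest GC content of these 4. An E2F-like form stood in 2 of the 4 stretches, those of cdc-48.1 and ubxn-2, against 25.2% of consistent peaks and 6.84% of all genes at 163 bp upstream. GAGCGC stood in the stretch of ufd-2 alone, against 31.2% and 4.01%, and GAGAGA in those of ufd-2 and ubxn-3, against 31.4% and 15.2%. Occurrences on both strands were counted, and GAGCGC can share bases with the E2F-like forms. These matches are letters in a window and not shown to be binding sites.

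**Figure D5:**
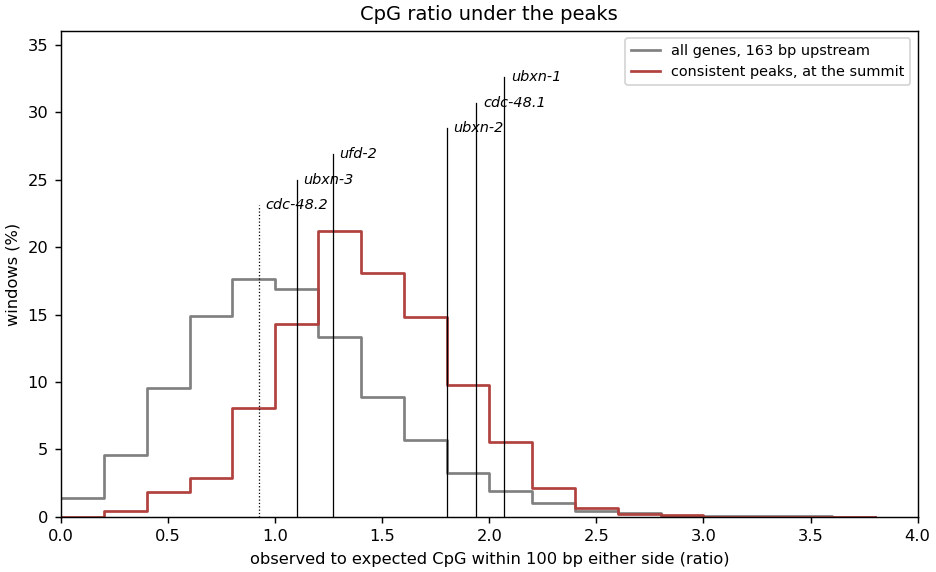
Observed over expected CpG within 100 bp either side (horizontal axis) for all protein-coding genes 163 bp upstream of the start (grey) and for the consistent peaks at the summit (red), as a percentage of windows (vertical axis). Solid lines mark the summits of cdc-48.1, ufd-2, ubxn-1, ubxn-2 and ubxn-3 and the dotted line marks cdc-48.2 at 163 bp upstream; cdc-48.1 is at 1.94 and cdc-48.2 at 0.924.

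Other genes that work with CDC-48 were mostly without a consistent peak. Of 18 such genes, 3 had one (16.7%, against 6.51% of all genes): ufd-3, ubql-1 and ubc-7. The peak of ufd-3, which encodes a ubiquitin-binding CDC-48 partner, ranked 100, 114 and 156 in replicates 1, 2 and 3 and lay 115 bp upstream of the start. For ubql-1, the ubiquilin gene, the ranks were 194, 305 and 171, with the summit 520 bp upstream. For ubc-7, a ubiquitin-conjugating enzyme gene of endoplasmic reticulum protein degradation, they were 468, 699 and 460, at 315 bp upstream. All 18 genes had a listed peak of some rank in at least 1 list, which is common, since only 9.89% of all genes had none.

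Among 12 genes for other AAA ATPases, 5 had a consistent peak (41.7%, against 6.51% of all genes). The 12 were chosen by name and leave out the rpt genes of the proteasome, so this is not the share of all AAA ATPase genes. The best mean ranks were those of ruvb-2, a chromatin remodelling ATPase gene, at 190 ± 77.5, and of the mitochondrial atad-3 at 283 ± 218 (SD, n = 3 for each). Next came nsf-1, which acts in membrane fusion, at 696 ± 226, and pch-2, which remodels meiotic axis proteins, at 851 ± 454 (SD, n = 3 for each). The fifth, ymel-1, is a mitochondrial protease gene and was named after its values were seen. At an IDR of 0.01, pch-2 and ymel-1 were not called and 3 of the 12 remained, against 5.38% of all genes. The best mean rank in both lists was 123 ± 29.1 (SD, n = 3) at ufd-3, against 4.0 at cdc-48.1. Since cdc-48.1 was chosen for its peak, this gap is largely fixed by the choice and was not tested. Without replicate 1, 10 of these 12 and 5 of the 18 other CDC-48 pathway genes were called, against 11.7% of all genes.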

How the data were processed

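LIN-15B ChIP-seq peak lists from 3 biological replicates of L1 larvae and 1 series-wide list were used, all on ce11. Per the records deposited with the files, a control file entered the making of each list, which holds peaks and background for use in IDR, and the series-wide list comes from the alignments of all replicates. The aligner and caller were not given in the sources used here. On each list, the authors' strength is a deposited signal value on a scale of that list. The deposited q value was taken as a score of unstated scale, with some values below 0, and served only as an alternative ranking. Lists on ce10 were not used here.

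Ties in strength were ranked in a seeded random order. In each replicate, the strongest peak with an overlap of 1 bp or more was taken as the match of a series-wide peak, and IDR was fitted per pair with a Gaussian copula mixture written with numpy 2.4.6 and scipy 1.17.1 in Python 3.11.15. The fit was also run on data simulated with the fitted parameters. False calls made up 4.41%, 5.69% and 4.76% for replicates 1 and 2, 1 and 3, and 2 and 3 (6511, 7012 and 6127 peaks). For the same pairs, 87.6%, 78.9% and 80.9% of reproducible peaks were recovered. The simulated ranks came from the fitted model itself, each pair alone and without the matching to series-wide peaks. They check the fit and do not give the error rate of the consistent calls. Genes came from Ensembl release 115 and sequence from RefSeq, both WBcel235, and every listed peak ended inside its chromosome. Coding sequences were aligned with biopython 1.88. Depth is unknown, so no interval that rests on it was computed. The replicates are labelled as biological.

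Members, lists, windows and motifs were chosen with earlier results of these data known, so no count of members was tested. Named genes are the 10 members, genes whose start is nearer to a member peak of rank 2000 or better, and up to 4 called genes of each other list by mean rank. F19B6.1, ctns-1, C06A1.6, pdha-1 and F48A11.4 were named as neighbours after their positions were seen.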

Additional observations from a re-analysis of the deposited data

How the results depend on the processing

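Of 59 recomputed values over 7 results, 52 stayed within the spread between replicates or, for counts and shares, within 1.5 times. The number of CDC-48 genes with a consistent peak ranged from 3 to 5 against 4, with cdc-48.1, ufd-2 and ubxn-2 called in each setting run; ubxn-3 and ubxn-1 were the genes that changed. Without a replicate, 1 pair has to pass in place of 3, so the counts and shares can only stay or rise. Leaving out each replicate gave 4 to 5 CDC-48 genes, 3 to 5 other pathway genes and 5 to 10 other AAA ATPase genes. It gave 7.04% to 11.7% of all genes, 1071 to 1848 peaks in the genome and a mean cdc-48.1 rank of 3.0 to 5.5. For peaks in the genome, all genes and both other lists the highest of these values came without replicate 1; the 5 CDC-48 genes were also reached without replicate 2 and at an IDR of 0.1. At an IDR of 0.01, 3 other AAA ATPase genes were called, against 5.38% of all genes. With each peak given only to the gene with the nearest start, 4.24% of all genes were called; this setting and the window from 2000 bp upstream were chosen after seeing the data. Ranked by q score, the best series-wide peak at cdc-48.2 moved from 10697 to 20064; the cause was not tested. No paired analysis was possible because there is 1 group. Depth is unknown, so the absence of a peak says only that none was listed.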

Other observations

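The cdc-48.1 peaks were narrower than most. They were 134, 164 and 238 bp wide in replicates 1, 2 and 3 and 208 bp in the series-wide list, where the usual widths are 250, 224, 300 and 264 bp. Among the 20 strongest peaks, 15 were narrower than usual in replicate 1 and 20 in each of the other lists, against 0.0533%, 0.177%, 0.457% and 0.41% of all peaks in replicates 1, 2 and 3 and the series-wide list. The listed peaks of ufd-2, ubxn-1, ubxn-2 and ubxn-3 had the usual width.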
